A study of Mus musculus with 6 samples.

Results

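Synaptotagmins, syntaxins, vesicle-associated membrane proteins (VAMPs), the Snap25 family and complexins are gene families of membrane fusion, in part triggered by calcium. They were read on whole-brain arrays of mice with HuR deleted in neurons and of their controls. Members were chosen by name: every symbol formed of Syt, Vamp or Stx and a number, with Snap23, Snap25, Snap29, Snap47 and complexins 1 to 3 (Cplx1, Cplx2, Cplx3), each read by its brightest probeset that carries a single gene symbol. This gave 45 of the 22180 genes with such a probeset: 17 synaptotagmins, 14 syntaxins, 7 VAMPs, 4 Snap25 family genes and 3 complexins. Of these, 44 were bright enough to be tested among 16635 genes, and Stx19, a syntaxin of epithelia, was not, at log2 levels of 2.86, 2.60 and 2.54 in HuR KO brain and 2.73, 2.85 and 2.58 in HuR WT brain.

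The HuR KO group was 3 brain samples of the genotype Thy1Cre-ERT2-EYFPHuRf/f, with both copies of Elavl1, the gene of the RNA-binding protein HuR, floxed, and the HuR WT group was 3 brain samples of the genotype Thy1Cre-ERT2-EYFPHuRf/+, with 1 floxed copy. Both groups carried a tamoxifen-inducible Cre and a yellow fluorescent reporter under the Thy1 promoter, which is active in neurons, and both received tamoxifen at 10 and 11 weeks of age. Brains were taken at 91 days of age, and the labels give mice of either sex without the sex of a sample. Cells without Cre keep HuR in both groups, and Cre can remove 1 copy in the neurons of HuR WT mice, so the comparison is of 2 floxed copies against 1. The title of the series places the comparison in the study of motor neuron disease.

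Vesicle fusion is carried out by SNARE proteins. A VAMP on the vesicle zips together with a syntaxin and a Snap25-type protein on the target membrane, complexin clamps and then promotes the assembled bundle, and a synaptotagmin senses calcium and triggers fusion. In the brain, Syt1, Stx1a, Vamp2 and Snap25 serve fast transmitter release at most forebrain synapses, whereas Syt2 and Vamp1 prevail in brainstem, cerebellum and spinal cord, and the other members act in slower release, in dense-core vesicles, or in traffic between endosomes, Golgi and lysosomes.

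The arrays differed by replicate number. Both arrays numbered 3 had an Xist level of 7.68 (HuR KO) and 7.69 (HuR WT) on the log2(intensity + 1) scale, against 2.52 to 2.79 on the other 4, and Y-linked Uty, Kdm5d and Eif2s3y were low on them, at 2.86 to 3.19 against 5.74 to 7.53. Each group thus holds 1 array that reads as female. Elavl1 had log2 levels of 8.22, 8.17 and 8.27 in HuR KO brain and of 8.27, 8.01 and 8.53 in HuR WT brain, so the groups overlapped and this probeset does not check the labels. The tissue labelled total brain carried neuronal markers at log2 levels of 7.07 to 10.94, oligodendrocyte markers at 6.81 to 10.53 and astrocyte markers at 6.69 to 11.79, above the array median of 3.88. The labels name no single animals, so every p-value below covers only the variation among these samples, which may be partly technical.

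No member passed the test of HuR KO over HuR WT. In limma, 0 of the 44 tested members had a Benjamini-Hochberg adjusted p under 0.05, where 0 of all 16635 genes did (0%). The adjusted p of every member was 0.9998. At an unadjusted p under 0.05 there were again 0 members, against 282 of all genes (1.7%). With arrays of the same replicate number treated as pairs (replicate number as a block), 0 members passed the adjusted threshold and 1, Cplx3, had an unadjusted p under 0.05, against 806 of all genes (4.85%). The members' folds ran from 0.868 to 1.19, with a median log2 fold change of 0.006 beside 0.013 over all genes tested. Of the 44, 24 lay above 0 and 20 below (54.5% above, as against 54.8% of all genes), and with arrays centred on their median 31 lay above 0 (70.5%). Under that centring the median log2 fold change was 0.052 over the members, beside 0.055 over all genes tested. For 37 of the 44, the difference was smaller than the members' own standard deviation within groups.

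**Figure D1:**
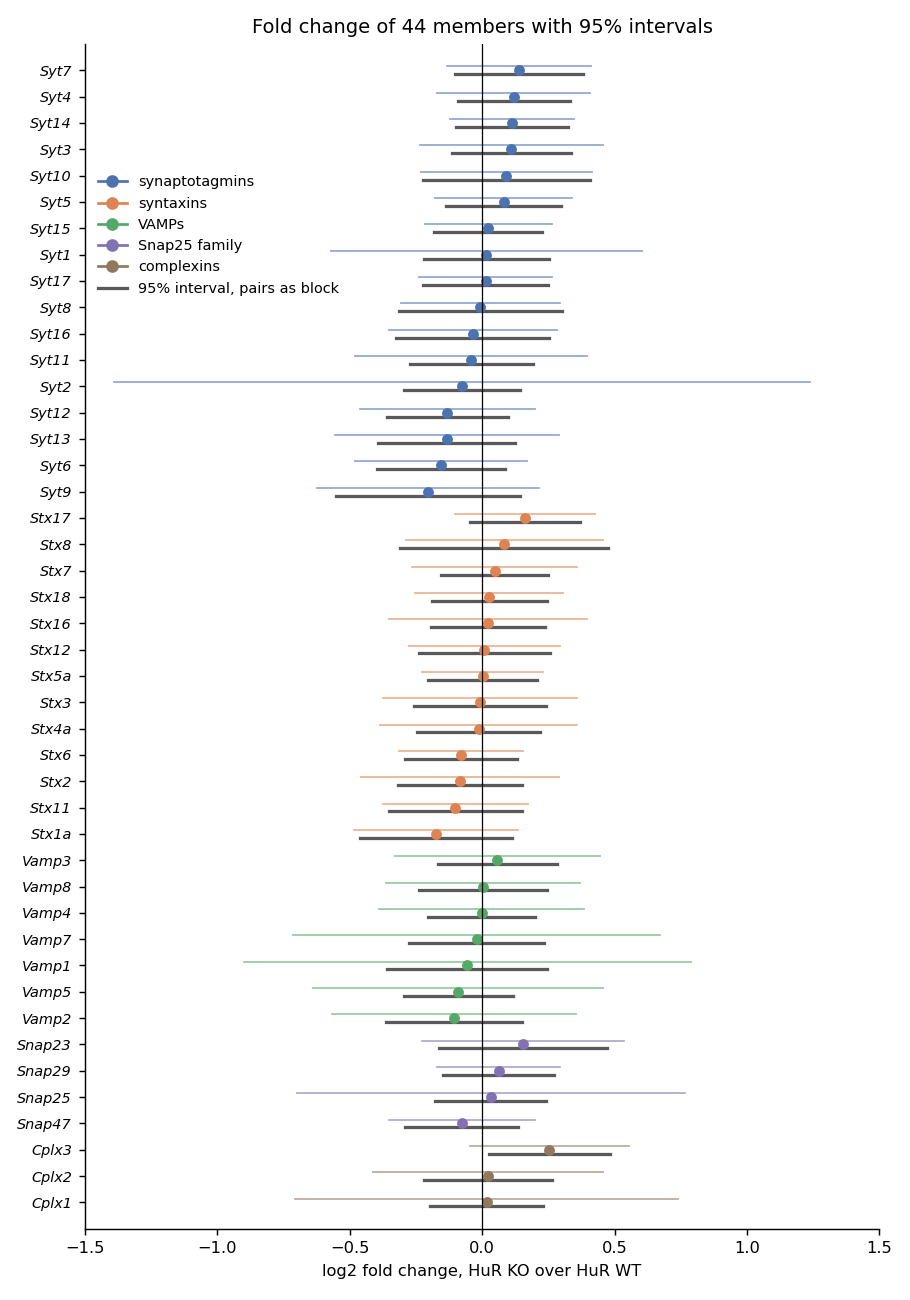
Log2 fold change of HuR KO over HuR WT (x axis) for the 44 tested members (y axis), grouped by family, with 95% confidence intervals without pairs (thin, in the family's colour) and with same-numbered arrays as pairs (grey). Points run from -0.20 (Syt9) to 0.25 (Cplx3), and Syt2 has the widest interval without pairs, from -1.39 to 1.24.

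The intervals bound, for each gene alone, how large a difference in whole-brain level could have been missed. They do not bound a change within the neurons that carry Cre, as other cells add to the same level. Nor do they hold for all 44 members at once. Without pairs, the 95% confidence interval lay within a 1.5-fold change in either direction for 36 members and within a 2-fold change for 43, Syt2 being the exception. With pairs, which are assumed for arrays 1 and 2, it lay within a 1.5-fold change for all 44. The distance from the estimate to either end of the interval had a median of 0.34 over the members without pairs and 0.23 with them, on the log2 scale, close to the 0.33 and 0.24 over all genes. In whole brain, fewer cells of a type and less RNA per cell cannot be told apart.

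Cplx3 was the member with the smallest p and the only one whose groups did not overlap. Its product is a complexin best known from ribbon synapses of the retina, where it regulates sustained release. It had log2 levels of 5.69, 5.39 and 5.35 in HuR KO brain, against 5.31, 5.12 and 5.24 in HuR WT brain. All 3 HuR KO arrays lay above all 3 HuR WT arrays, with the lowest HuR KO array close to the highest HuR WT array. The fold was 1.19 (log2 fold change 0.25, standard error 0.13, 95% confidence interval -0.05 to 0.56 on the log2 scale, limma unadjusted p = 0.0872, adjusted p = 0.9998). With pairs the unadjusted p was 0.0351 and the adjusted p 0.984. Groups did not overlap in the higher direction for 1 of 44 members, where 523 of 16635 genes did so (3.14%), and in the lower direction for 0 members, against 425 genes (2.55%). Much of the value came from the array HuR KO 1: without it the log2 fold change was 0.146. Without both arrays numbered 3 it was 0.321.

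The other complexins, which bind assembled SNAREs at most central synapses, differed between genotypes by less than their standard deviation within groups. Cplx1 averaged 9.90 ± 0.482 in HuR KO brain and 9.88 ± 0.508 in HuR WT brain, and Cplx2 9.36 ± 0.191 and 9.34 ± 0.329 (log2 level, SD, n = 3 each). Their log2 fold changes were 0.017 (Cplx1) and 0.023 (Cplx2), and within pairs the intervals ran from -0.20 to 0.23 for Cplx1 and from -0.22 to 0.26 for Cplx2.

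Among the synaptotagmins, 9 of 17 differences lay above 0 and 8 below (median 0.013 on the log2 scale). Syt1, the calcium sensor of fast release in forebrain, averaged 11.39 ± 0.385 in HuR KO brain and 11.38 ± 0.399 in HuR WT brain (log2 level, SD, n = 3 each), and with pairs its 95% interval ran from 0.858-fold to 1.19-fold. The smallest p in the family was that of Syt7, a high-affinity sensor of asynchronous release and facilitation, with log2 levels of 8.44, 8.35 and 8.34 in HuR KO brain and 8.25, 8.07 and 8.39 in HuR WT brain. Arrays 2 and 3 of HuR KO were below the highest HuR WT array, so the groups overlapped, and the log2 fold change was 0.14 (standard error 0.12, limma unadjusted p = 0.271). Syt9, a fast sensor of some limbic and striatal neurons, had the lowest value of the family, -0.20 with a standard error of 0.18, from levels of 6.31, 6.76 and 6.79 in HuR KO brain and 6.81, 6.58 and 7.07 in HuR WT brain. Its lowest array was HuR KO 1, and without that array the value was -0.05, while without HuR WT 3 it was -0.08. Syt14, which does not bind calcium, stood at 0.11 with the smallest standard error of these, 0.10. Syt4, a synaptotagmin of dense-core and postsynaptic vesicles, was singled out as the 1 member with 3 probesets. Its brightest gave 0.12, and the others, at log2 levels of 3.42 to 3.96 around the array median, were too dim to bear on it. The remaining synaptotagmins, Syt3, Syt5, Syt6, Syt8, Syt10, Syt11, Syt12, Syt13, Syt15, Syt16 and Syt17, lay between -0.16 (Syt6) and 0.11 (Syt3), all with overlapping groups.

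The syntaxins had 7 of 13 tested values above 0 and a median of 0.002. Stx1a, the plasma membrane syntaxin of fast release, had log2 levels of 8.47, 8.27 and 8.58 in HuR KO brain, against 8.43, 8.73 and 8.68 in HuR WT brain. The highest 2 arrays were HuR WT 2 and HuR WT 3 and the lowest was HuR KO 2, with overlap between the groups. Its log2 fold change was -0.17 (standard error 0.13, limma unadjusted p = 0.226). Stx17, which brings autophagosomes to fuse with lysosomes, was at 0.16 with a standard error of 0.11, from 6.61, 6.82 and 6.69 in HuR KO brain and 6.42, 6.62 and 6.60 in HuR WT brain. It was higher in HuR KO in all 3 pairs, but HuR WT 2 lay above HuR KO 1. Stx11, a syntaxin of immune cell secretion, was at -0.10 and Stx2, an epithelial and sperm syntaxin, at -0.08. Stx5a and Stx6, singled out after their values were seen, had the smallest standard deviations within groups among the syntaxins (0.046 and 0.0577). Stx5a, of traffic between endoplasmic reticulum and Golgi, averaged 7.97 ± 0.0326 in HuR KO brain and 7.97 ± 0.0563 in HuR WT brain, and Stx6, of the trans-Golgi network, 8.25 ± 0.0712 and 8.33 ± 0.0398 (log2 level, SD, n = 3 each). The remaining syntaxins, Stx3, Stx4a, Stx7, Stx8, Stx12, Stx16 and Stx18, lay between -0.013 (Stx4a) and 0.08 (Stx8), all with overlapping groups.

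Of the VAMPs, 2 of 7 lay above 0, with a median of -0.021. Vamp2, the main vesicle SNARE of forebrain synapses, had log2 levels of 8.45, 8.25 and 8.69 in HuR KO brain, against 8.36, 8.38 and 8.98 in HuR WT brain. The groups overlapped, and the value of -0.11 with a standard error of 0.20 turned to 0.095 without HuR WT 3. Vamp3, a widely expressed relative of recycling endosomes, was at 0.06 with a standard error of 0.17, and Vamp5, a VAMP first described in muscle, at -0.09 with a standard error of 0.23. Vamp4, of the trans-Golgi network, was at -0.0017. In the Snap25 family 3 of 4 lay above 0, with a median of 0.048. Snap25 averaged 11.84 ± 0.487 in HuR KO brain and 11.80 ± 0.518 in HuR WT brain, and with pairs its 95% interval ran from 0.884-fold to 1.18-fold. Snap23, its counterpart in non-neuronal and postsynaptic membranes, had levels of 5.20, 5.23 and 5.10 in HuR KO brain, against 5.38, 4.84 and 4.85 in HuR WT brain. The array HuR WT 1 was the highest of all, and without it the value moved to 0.329 (limma unadjusted p = 0.0279, adjusted p = 0.9999) from 0.15 with a standard error of 0.16 on all 6. Snap29, of autophagosome fusion, stood at 0.06 and Snap47, of intracellular membranes, at -0.08.

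**Figure D2:**
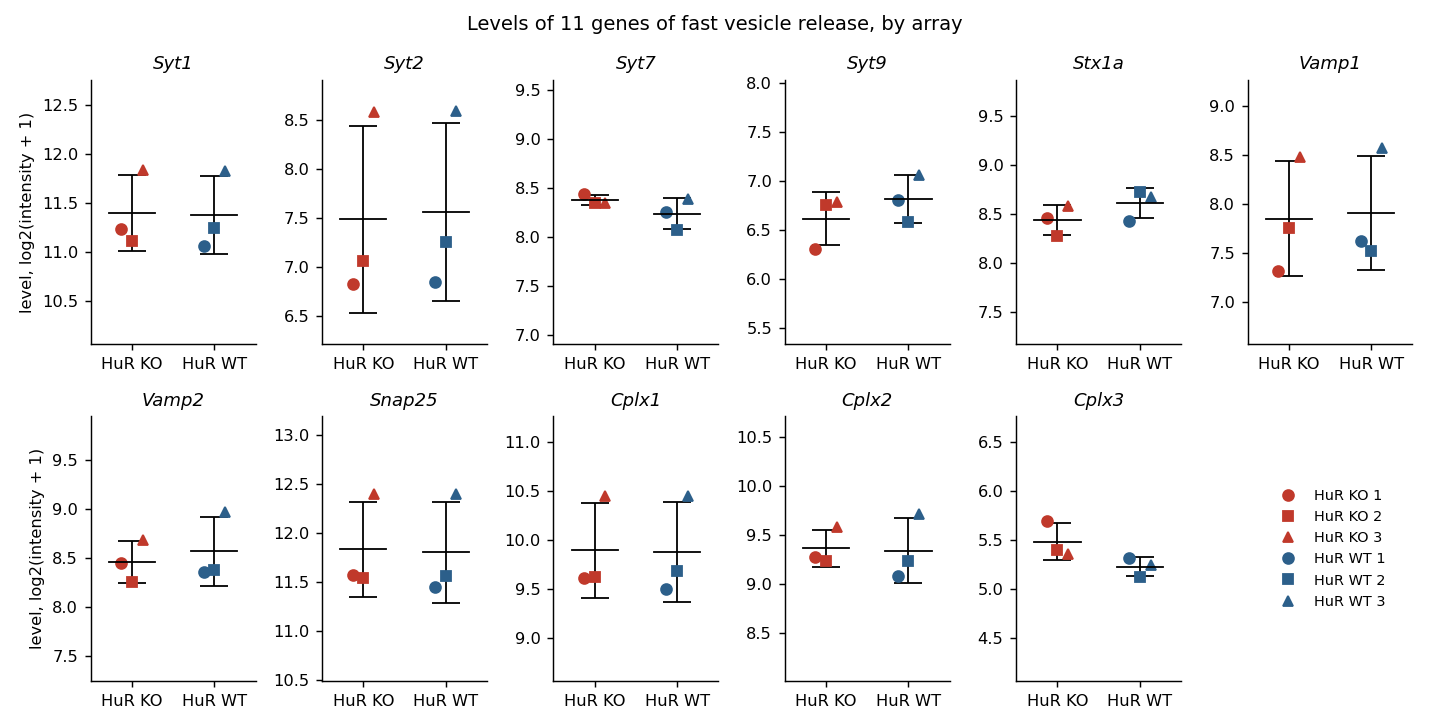
Log2(intensity + 1) level (y axes, each spanning the same 2.7 log2 units) of 11 genes of vesicle release in each HuR KO array (red, left) and HuR WT array (blue, right), with symbols for replicate numbers and bars for the mean ± SD of 3 arrays. Syt2, Vamp1, Snap25, Cplx1, Syt1, Vamp2 and Cplx2 are highest on the arrays numbered 3 of both groups, and Cplx3 alone has no overlap between groups.

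What set the members apart from each other was their spread between arrays within a group. Both arrays numbered 3 were the highest of the 6 for 14 of the 44 tested members, against 23.4% of all genes tested, and the lowest for 10 members, against 20.6%. The members that were highest there include Syt1, Syt2, Vamp1, Vamp2, Snap25, Cplx1 and Cplx2 of the fast release machinery, though not Stx1a, Syt7 or Syt9. The rest of the highest were Syt4, Syt11, Syt12, Syt13, Syt15, Stx16 and Snap47, so that group is not made of fast release genes alone. Those that were lowest are Vamp3, Vamp4, Vamp5, Vamp7, Stx2, Stx4a, Stx7, Stx12, Stx18 and Syt5. Without quantile normalization the counts were 16 highest and 8 lowest, and with arrays centred on their median 18 and 5. By family, 7 synaptotagmins, 2 VAMPs, 2 Snap25 family genes, 2 complexins and 1 syntaxin were highest, and 4 VAMPs, 5 syntaxins and 1 synaptotagmin were lowest. This is a description of 2 arrays, 1 per genotype, and no test was made.

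Syt2, the fast calcium sensor of hindbrain and spinal synapses, had the largest spread of all members, with a standard deviation of 0.932 within groups. Its log2 levels were 6.83, 7.06 and 8.59 in HuR KO brain and 6.85, 7.26 and 8.59 in HuR WT brain. In deposited intensities these were 113, 133 and 396 in HuR KO brain and 116, 143 and 393 in HuR WT brain. Array 3 thus stood 3.12-fold above the mean of the other 2 in HuR KO and 2.9-fold in HuR WT, while the genotypes differed by -0.08 (log2, standard error 0.56). With pairs its 95% interval narrowed to 0.816-fold to 1.1-fold.

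Vamp1, the vesicle SNARE of brainstem and spinal motor synapses, was likewise highest on array 3 of each group. It had log2 levels of 7.31, 7.76 and 8.48 in HuR KO brain and 7.62, 7.52 and 8.57 in HuR WT brain, and array 3 stood 1.93-fold (HuR KO) and 2-fold (HuR WT) above the mean of the others. Between genotypes it differed by -0.06 (log2, standard error 0.36), and with arrays centred on their median, which raised the median of all genes, by 0.004. Cplx1 had levels of 9.62, 9.62 and 10.45 in HuR KO brain and 9.50, 9.68 and 10.46 in HuR WT brain. Snap25 had 11.57, 11.54 and 12.40 in HuR KO brain and 11.45, 11.56 and 12.40 in HuR WT brain. Syt1 had 11.23, 11.11 and 11.83 in HuR KO brain and 11.06, 11.24 and 11.83 in HuR WT brain. For all of these, both arrays numbered 3 lay above the other 4, and under the other scalings array 3 still lay above the mean of the others of its group.

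In the opposite direction, Vamp7, a VAMP of late endosomes and of slow axonal release whose gene lies on the X chromosome, had levels of 8.65, 8.61 and 7.98 in HuR KO brain and 8.72, 8.79 and 7.79 in HuR WT brain; it was singled out after its values were seen. Vamp5 had 5.47, 5.19 and 4.75 in HuR KO brain and 5.59, 5.22 and 4.87 in HuR WT brain. Array 3 was the lowest of each group in both genes. Stx2 had log2 levels of 5.76, 5.75 and 5.29 in HuR KO brain and 5.84, 5.69 and 5.53 in HuR WT brain, the largest spread among the syntaxins.

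**Figure D3:**
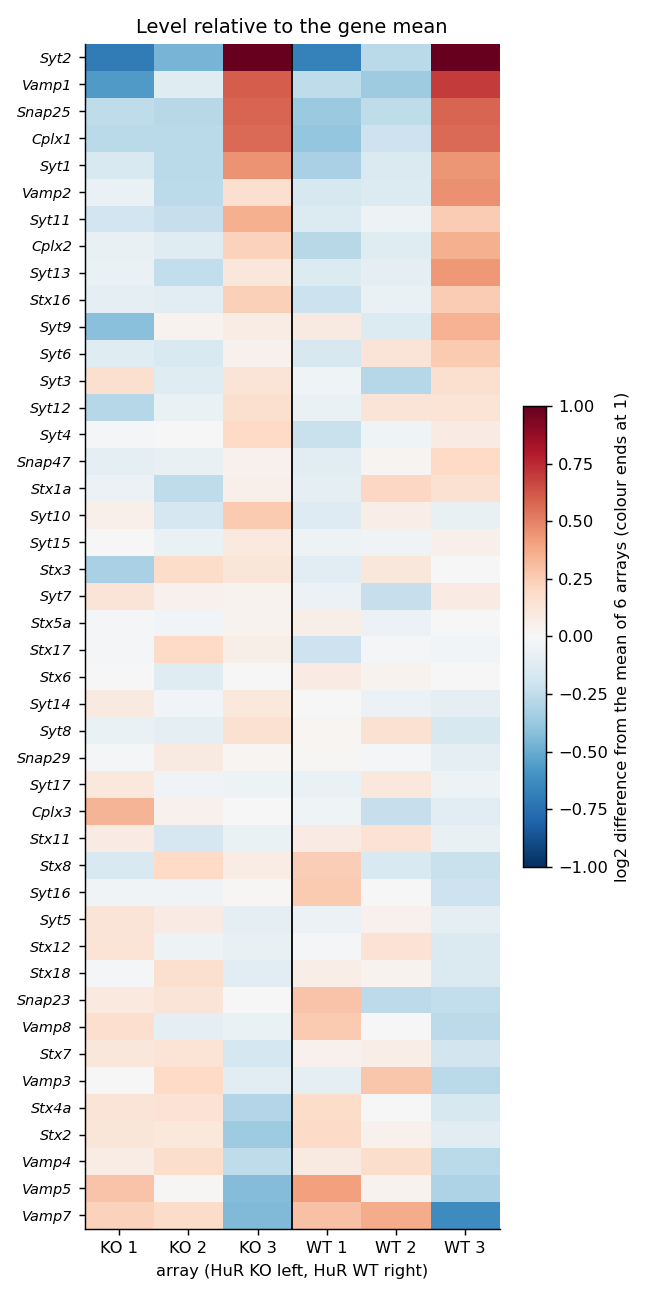
Level of each of the 44 tested members (rows) on each array (columns, HuR KO left of HuR WT) as the log2 difference from that gene's mean over 6 arrays, ordered by how far the arrays numbered 3 lie from the others. The top rows, led by Syt2 and Vamp1, are high on KO 3 and WT 3 alike, and the bottom rows, led by Vamp7 and Vamp5, are low on both.

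Within-array ratios of related members compare partners on 1 array. The log2 ratio of Syt1 over Syt2 was 4.40, 4.05 and 3.25 in HuR KO brain and 4.21, 3.98 and 3.23 in HuR WT brain. The ratio of Vamp2 over Vamp1 was 1.14, 0.50 and 0.21 in HuR KO brain and 0.73, 0.86 and 0.40 in HuR WT brain. For Cplx2 over Cplx1 it was -0.34, -0.39 and -0.87 in HuR KO brain and -0.42, -0.45 and -0.75 in HuR WT brain. All 3 ratios were lowest on the arrays numbered 3 in each group, so Syt2, Vamp1 and Cplx1 stood out there more than Syt1, Vamp2 and Cplx2. For Snap25 over Snap23 the ratio was instead highest on those arrays, at 7.30 in HuR KO and 7.55 in HuR WT, against 6.07 to 6.72 on the other 4. Between genotypes the ratios differed by 0.09 (Syt1 over Syt2), -0.05 (Vamp2 over Vamp1), 0.005 (Cplx2 over Cplx1) and -0.12 (Snap25 over Snap23), each smaller than the standard deviation within groups and with overlapping groups.

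**Figure D4:**
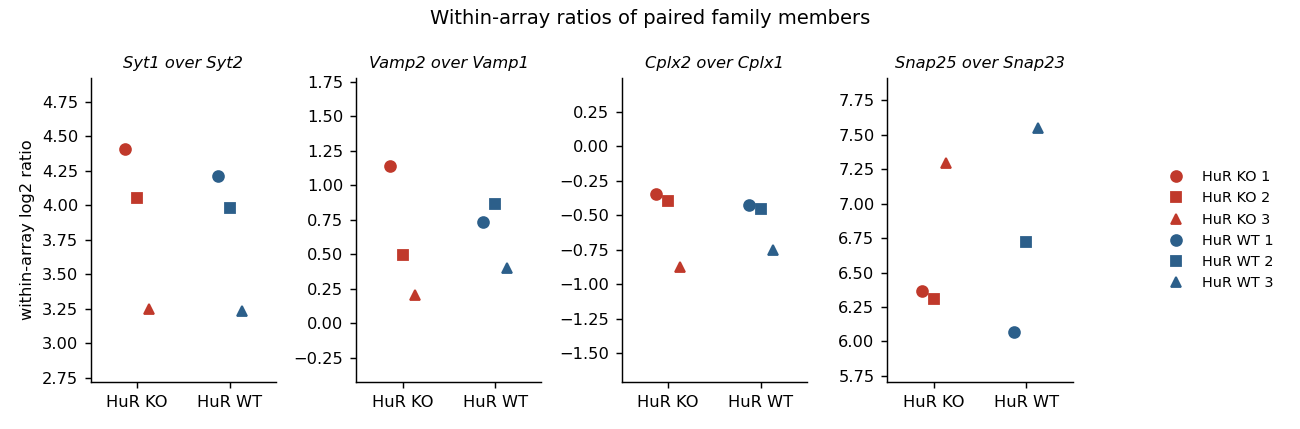
Within-array log2 ratio (y axes, each spanning 2.2 log2 units) of Syt1 over Syt2, Vamp2 over Vamp1, Cplx2 over Cplx1 and Snap25 over Snap23 in each HuR KO array (red, left) and HuR WT array (blue, right). The arrays numbered 3 (triangles) are lowest in the first 3 panels and highest in the last, in both groups.

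Markers of brain regions and cell types differed on the same arrays. Over all genes tested, 23.4% were highest on both arrays numbered 3 and 20.6% were lowest on both. Of the hindbrain and cerebellum neuron markers, 7 were tested and 5 were highest on both arrays numbered 3, with a mean log2 level over the list of 6.23, 6.45 and 7.25 in HuR KO brain and 6.46, 6.22 and 7.15 in HuR WT brain. These 5 were Cbln1, Calb1, En2, Gabra6 and Slc6a5, and the other 2, Hoxb3 and Hoxb5, were not highest on both. Slc6a5, the glycine transporter of hindbrain and spinal neurons, had the largest spread of the list. It had 4.85, 6.19 and 8.14 in HuR KO brain and 5.70, 5.43 and 7.91 in HuR WT brain. Hoxb3 had 3.86, 3.46 and 3.86 in HuR KO brain and 3.74, 3.64 and 3.82 in HuR WT brain. These levels lay below the array median of 3.88. Hoxb5 had 4.58, 4.11 and 4.26 in HuR KO brain and 4.39, 4.67 and 4.50 in HuR WT brain. The 5 tested forebrain markers averaged 6.35, 6.26 and 6.19 in HuR KO brain and 6.44, 6.30 and 6.32 in HuR WT brain, and of the 11 neuronal markers 7 were highest on both arrays. All 6 endothelial markers were highest there (list mean 6.09 in HuR KO and 5.92 in HuR WT, against 4.65 to 4.99 elsewhere), and 5 of 8 astrocyte, 5 of 6 microglial and 5 of 6 meningeal fibroblast markers were lowest. No marker of these lists was at 0, the lowest level being 2.86. Between genotypes, 8 of 9 oligodendrocyte markers lay below 0 (list mean 8.67, 8.73 and 8.74 in HuR KO brain and 9.03, 8.72 and 8.87 in HuR WT brain), 4 of them without overlap (2.55% of all genes tested). All 11 neuronal markers (median 0.068) and 7 of 8 astrocyte markers (median 0.069) lay above 0, against 54.8% of all genes tested. Of the other lists, 4 of 6 microglial, 4 of 6 meningeal fibroblast and 3 of 6 endothelial markers lay above 0. Of the regional lists, 1 of 5 forebrain and 3 of 7 hindbrain and cerebellum markers did. Markers of a list were read on the same 6 arrays, so these counts are not independent results. Opalin, a myelin protein of oligodendrocytes, had log2 levels of 6.95, 6.81 and 7.05 in HuR KO brain and 7.91, 7.32 and 7.32 in HuR WT brain (log2 fold change -0.58, limma unadjusted p = 0.0132, 0.00696 with pairs, adjusted p = 0.9998), and was the 1 marker of these lists with an unadjusted p under 0.05 without pairs. The part of these markers, and of the sex that Xist marks, in the members' levels was not tested.

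**Figure D5:**
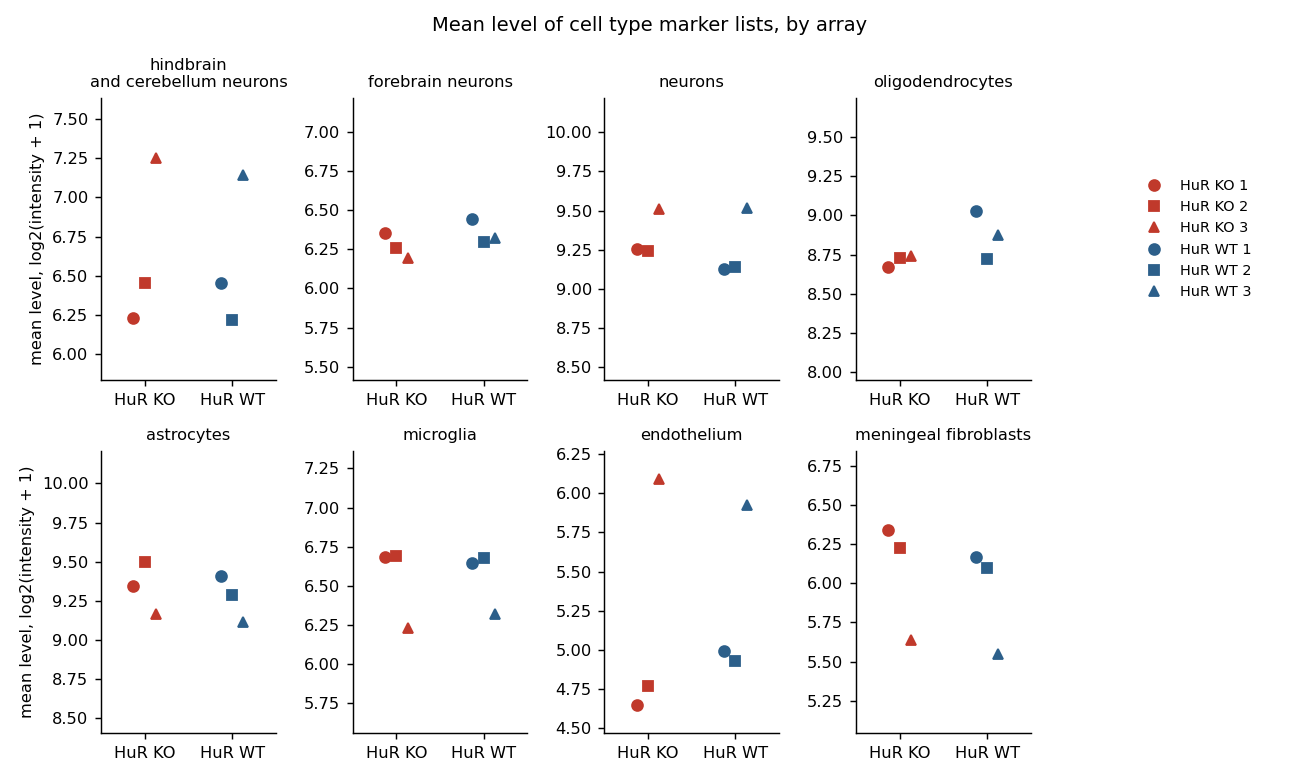
Mean log2(intensity + 1) level of 8 marker lists (panels, y axes each spanning 1.8 log2 units) in each HuR KO array (red, left) and HuR WT array (blue, right). The arrays numbered 3 (triangles) are high in the hindbrain and cerebellum, neuron and endothelium panels and low in the microglia and meningeal fibroblast panels, in both groups.

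Of the members that were high together on those arrays, Syt2, Vamp1 and Cplx1 lie on chromosomes 1, 6 and 5. All 45 members were placed in RefSeq (GRCm38.p6), on 18 chromosomes, with 0 on chromosome 8, which carries Elavl1. Vamp5 and Vamp8 are close neighbours on chromosome 6, with 4752 bases between them, and Vamp8, of late endosomes and platelet granules, named for this position, was at 0.004 beside the -0.09 of Vamp5. RefSeq promoter windows, from 250 bases before to 50 after the start, are shown for Syt2, Vamp1, Cplx1 and Cplx3. Snap25, also high on the arrays numbered 3, had no listed window. The windows shown are printed 5′ to 3′ on the gene's strand, with every GC box (GGGCGG on either strand) in capitals. They lie at chr1:134646362-134646661 on the plus strand (Syt2, the first of 2 listed starts), chr6:125215331-125215630 on the plus strand (Vamp1), chr5:108549978-108550277 on the minus strand (Cplx1) and chr9:57606232-57606531 on the minus strand (Cplx3).
Syt2: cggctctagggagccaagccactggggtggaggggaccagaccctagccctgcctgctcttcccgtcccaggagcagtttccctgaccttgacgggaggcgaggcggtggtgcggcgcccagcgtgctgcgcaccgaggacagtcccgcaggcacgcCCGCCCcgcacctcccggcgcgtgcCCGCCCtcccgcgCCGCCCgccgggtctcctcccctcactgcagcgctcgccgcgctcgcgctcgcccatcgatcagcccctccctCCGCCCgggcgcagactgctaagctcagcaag
Vamp1: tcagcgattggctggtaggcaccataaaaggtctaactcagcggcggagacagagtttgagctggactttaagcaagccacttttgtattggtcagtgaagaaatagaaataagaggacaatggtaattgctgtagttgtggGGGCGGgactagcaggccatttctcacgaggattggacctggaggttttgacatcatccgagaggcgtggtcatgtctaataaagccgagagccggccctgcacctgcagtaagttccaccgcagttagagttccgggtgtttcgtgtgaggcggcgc
Cplx1: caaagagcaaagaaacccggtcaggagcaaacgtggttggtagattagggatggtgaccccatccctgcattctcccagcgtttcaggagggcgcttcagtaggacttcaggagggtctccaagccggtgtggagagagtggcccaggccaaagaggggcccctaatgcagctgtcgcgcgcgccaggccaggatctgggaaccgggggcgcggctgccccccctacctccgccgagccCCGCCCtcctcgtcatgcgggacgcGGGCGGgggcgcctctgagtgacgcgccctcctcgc
Cplx3: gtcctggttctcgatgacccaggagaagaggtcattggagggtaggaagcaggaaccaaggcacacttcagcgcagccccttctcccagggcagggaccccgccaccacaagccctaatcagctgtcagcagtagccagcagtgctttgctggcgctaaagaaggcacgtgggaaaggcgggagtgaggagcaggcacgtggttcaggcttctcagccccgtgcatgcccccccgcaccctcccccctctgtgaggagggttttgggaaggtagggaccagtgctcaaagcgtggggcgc

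These windows differ in composition: G and C make up 74.3% of the Syt2 window, 67% of the Cplx1 window, 62.7% of the Cplx3 window and 51.7% of the Vamp1 window. GC boxes number 4 in Syt2, 2 in Cplx1, 1 in Vamp1 and 0 in Cplx3. Windows were listed for 35 of the 45 members, 46 windows in all. A GC box was in 30 of them (65.2%), against 35.7% of all 32851 listed windows of genes of any kind, and the median G and C content was 61.8% against 52.7%. A TATA box (TATAAA, either strand) was in 2 member windows (4.35%), against 13.6% of all, and a CCAAT box (CCAAT, either strand) in 15 (32.6%), against 37.4%. The full cAMP response element (TGACGTCA, either strand) and the left part of the REST site (TCAGCACC, either strand), both known from neuronal genes, were in 0 member windows, against 1.79% and 1.65% of all. In all, 12 motifs were searched on both strands, and the GC box was put in capitals after the counts were seen. The other 7 include the right part of the REST site (GGACAG, 26.1% of member windows and 22.2% of all), the core of the cAMP response element (TGACG, which also lies in TGACGTCA, 21.7% and 20.8%), the E box (CACGTG, 13% and 7.15%) and ACTACAA (2.17% and 3.24%). The longer left part of the REST site (TTCAGCACC), its longer right part and the site with both parts joined, which overlap the shorter REST motifs, were in 0 member windows, against 0.371%, 0.137% and 0.0244% of all. These letters describe the windows and say nothing of factors bound there.

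The wider release machinery, taken from lists of related genes, likewise held no gene that passed the test between genotypes. Of the proteins that prime SNAREs for fusion or take them apart, 21 were tested, 11 above and 10 below 0 (median 0.006), and 0 passed the adjusted or the unadjusted threshold. The smallest p were those of Unc13d, a priming factor of immune granules (-0.21), Stxbp6, which binds syntaxin in place of VAMPs (-0.15), and Snapin, a Snap25-binding protein (0.09). Of 10 other SNAREs of the Golgi, endoplasmic reticulum and endosomes, 7 lay above 0 (median 0.033), among them Bnip1 (0.15), Gosr1 (0.12) and Ykt6 (0.11), and 0 passed either threshold. Of 32 genes of the synaptic vesicle membrane and active zone, 16 lay above 0 and 16 below (median -0.002), and 0 passed either threshold. Syngr4, a synaptogyrin, had the smallest p there, with log2 levels of 4.03, 3.99 and 4.03 in HuR KO brain, against 4.23, 4.65 and 4.14 in HuR WT brain. Its groups did not overlap, the log2 fold change was -0.32 with a standard error of 0.15 (limma unadjusted p = 0.0629; 0.0438 with pairs), and the percentage of genes without overlap in that direction was 2.55% over all tested. The scaffolds Ppfia2 (-0.12) and Ppfia1 (0.07) followed. Syngr4 was dim, near the array median of 3.88, as were Unc13d (3.76 to 4.17) above and Esyt3 (4.07 to 4.68) below. Their differences are to be read with that limit. Of 8 synaptotagmin-like and extended synaptotagmin genes, 4 lay above 0, with Esyt3 at -0.24, Sytl2 at -0.16 and Esyt2, which tethers endoplasmic reticulum to the plasma membrane, at 0.13. The groups of Esyt2 did not overlap, with 8.41, 8.40 and 8.56 in HuR KO brain and 8.38, 8.24 and 8.35 in HuR WT brain. Over all genes tested, 3.14% had no overlap in that direction. Its lowest HuR KO array lay close to the highest HuR WT array (limma unadjusted p = 0.246, 0.181 with pairs).

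On the arrays numbered 3 these lists differed from one another. Over all genes tested, both arrays were highest for 23.4% and lowest for 20.6%. Both arrays were highest for 22 of the 32 vesicle membrane and active zone genes and for 12 of the 21 priming and disassembly genes, while of the other SNAREs 1 of 10 was highest and 5 were lowest, and of the synaptotagmin-like and extended synaptotagmin genes 1 of 8 was highest and 2 were lowest. Direction was also read within pairs, of which pairs 1 and 2 are assumed. In HuR KO, 6 of the 44 tested members were higher in all 3 pairs (Cplx3, Stx17, Stx7, Syt14, Syt4 and Syt5), beside 14.2% of all genes tested. Lower in all 3 were 2 of the 44, Syt2 and Vamp5, beside 10.7% of all genes tested.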

How the data were processed

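Total brain RNA of 3 HuR KO and 3 HuR WT samples was measured on 1-colour Mouse Gene 2.0 ST arrays, 150 ng labelled per sample with the Affymetrix WT Plus kit, per the labels' protocols. The deposited table holds linear intensity values for 41340 probesets; the submitters' processing notes list MAS5 as the tool, without settings. Values were taken as log2(intensity + 1) and quantile normalized, as array medians differed by 0.119 on the log2 scale. The annotation listed 25335 of these probesets, 23521 with 1 symbol and 1814 with several, and the remaining 16005 are unnamed here. The dimmest 25% of genes by mean level (5545) were not tested. limma 3.58.1 (R 4.3.3, lmFit and eBayes, two-sided) was fitted over all 16635 genes, with Benjamini-Hochberg adjustment at 0.05. Array number limits the precision, and a fold on this scale understates changes of dim genes. The procedure was tested on simulated data with independent noise for each gene, which lack the shared shift of the arrays numbered 3. A first criterion, on the recovery of large changes, was not met and was replaced afterwards. No result here rests on that simulation.

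Deviations from the group means of same-numbered arrays correlated at 0.314, 0.367 and 0.752, above the limit of 0.1, so the numbers were taken as pairs. Across numbers, HuR KO 2 correlated with HuR WT 1 at 0.401 and HuR KO 1 with HuR WT 2 at 0.373. The check is thus specific for number 3 alone and cannot tell pairs 1 and 2 from the crossed ones. A shared shift of the arrays numbered 3 by itself gives positive correlations among the others. Pairs come from this check and from no label. The naming rule took the genes of fast release, per family the 3 smallest unadjusted p and the largest standard deviation within groups, members without overlap, and the 3 smallest p per related list. Members and lists were chosen with earlier results of these data known, so no list was tested. Python 3.11.15 and matplotlib 3.10.9 drew the plots. Alternatives covered normalization, pseudocount, filter, probeset rule, variance trend, array weights, pairs and left-out arrays.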

Additional observations from a re-analysis of the deposited data

How the results depend on the processing

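No alternative called a member: members with an adjusted p under 0.05 numbered 0 in all 16 alternatives, as did all genes (limma). At an unadjusted p, 282 genes in the reported comparison became 465 without the brightness filter, 88 in the upper 50% of genes, 755 with array weights, 806 with replicate number as a block, 847 without both arrays numbered 3, and 163 to 577 when single arrays were left out. Members numbered 1 in place of 0 with array weights and with the replicate block (Cplx3 in both), and 0 to 1 without single arrays (Snap23 without HuR WT 1). The block changed no call at the adjusted threshold. Of the related and marker genes it also brought Syngr4 (0.0438), En2 (0.0106), Col3a1 (0.0313) and Slco1a4 (0.0488) to an unadjusted p under 0.05. The members' median log2 fold change was -0.016 to 0.031 without single arrays and 0.052 with arrays centred on their median, where that of all genes was 0.055. Of 44 members, 14 kept their sign in every alternative, Cplx3 among them, and 30 did not. Among genes taken by the naming rule, signs turned for Vamp1 with arrays centred on their median (0.0043), which raised the median of all genes. With array weights they turned for Syt1 (-0.011), Cplx1 (-0.023) and Vamp3 (-6.7e-05). Members named outside the rule turned too, among them Vamp7 (0.033) and Vamp4 (0.068) with that centring. Without both arrays numbered 3, Vamp8 (-0.089) and Stx5a (-0.018) did so. Among the members of the rule, leaving out single arrays gave ranges across 0 for Syt1 (-0.20 to 0.24) and Syt2 (-0.62 to 0.44). Ranges also crossed 0 for Vamp1 (-0.37 to 0.28), Vamp2 (-0.22 to 0.095), Snap25 (-0.25 to 0.33) and Cplx1 (-0.26 to 0.31). The same held for Cplx2 (-0.11 to 0.21), Snap47 (-0.15 to 0.0028) and Stx2 (-0.17 to 0.071). So it did for Vamp5 (-0.27 to 0.10) and Vamp3 (-0.064 to 0.21). Leaving out 1 array numbered 3 leaves the other in 1 group alone; the cause of other shifts was not tested. Dim members such as Syt8 and Stx11, at log2 levels near 4, have the most understated folds.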
